A study of Mus musculus with 20 samples.

Results

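The nuclear genes of the mitochondrial respiratory chain were followed through mouse preimplantation development, grouped by the 5 enzyme complexes their products belong to. The members were all probe sets with exactly 1 gene symbol that starts with Nduf (complex I), is Sdha, Sdhb, Sdhc or Sdhd (complex II), starts with Uqcr (complex III), starts with Cox followed by a digit (complex IV and its assembly factors) or starts with Atp5 (complex V). They came to 167 of the 22690 probe sets on the array and 90 of the 12394 genes with a probe set of their own: 39 genes of complex I, 4 of complex II, 8 of complex III, 22 of complex IV and 17 of complex V. A further 9 probe sets carried a respiratory chain symbol beside other symbols and were left out. RNA was profiled on Affymetrix MOE430A arrays from oocytes, 1-cell, 2-cell and 8-cell embryos and blastocysts, 4 arrays a stage. Per the labels it was total RNA amplified by 2 rounds of in vitro transcription. The labels give no strain, age, treatment or genotype, and do not say whether cells were pooled or whether the arrays of a stage came from separate collections, so the p-values reflect only how far these arrays differ from each other, and that may be technical.

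The respiratory chain lies in the inner mitochondrial membrane. Complexes I (NADH dehydrogenase) and II (succinate dehydrogenase) pass electrons to ubiquinone, complex III passes them on to cytochrome c, and complex IV (cytochrome c oxidase) passes them to oxygen, while complex V (ATP synthase) uses the resulting proton gradient to make ATP. Complexes I, III, IV and V are built from nuclear and mitochondrially encoded subunits, and complex II from nuclear ones alone. The oocyte supplies all mitochondria of the early embryo, and the cleavage stages up to the blastocyst take place without a large increase in the mass of the embryo.

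Levels are the deposited probe-set intensities, which have nearly the same trimmed mean on every array as deposited (150.1 on each). Changes are differences of log2(intensity + 12.15) between stage means, with moderated standard errors, and a gene was called changed where limma's two-sided test over 17208 probe sets gave a Benjamini-Hochberg adjusted p under 0.05. Of the 90 genes, 88 passed the filter on low intensity and were tested. The other 2, Cox7a1 and Cox8b, encode muscle isoforms of complex IV subunits. Each gene is represented by its brightest tested probe set, and intensities of different probe sets are not compared as levels. Of the 88 representative probe sets, 21 have names ending in _s_at (13) or _x_at (8), whose probes can bind several transcripts, so that a gene and a close copy cannot be told apart there.

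The oocyte, 2-cell and blastocyst arrays carried the markers of their labelled stages. No list of markers was set for the 1-cell or 8-cell stage. The 4 markers of the 2-cell embryo summed to 2489 to 4130 in 2-cell embryos and at most 696 at any other stage. The summed intensity of 7 oocyte genes was 148 to 209 in blastocysts, against 26607 to 31319 in oocytes, and that of 5 trophectoderm genes was 12575 to 16100.4 in blastocysts and at most 1632 at any earlier stage. The 10 cumulus and granulosa cell markers summed to 214 to 593 over all arrays, with Ptx3 at 36.2 or less, and the 7 sperm and testis markers to 76 to 248. Arrays of a stage correlated at 0.931 to 0.971. A probe set for 18S ribosomal RNA read 11006.5 to 15355 in 1-cell embryos, 143 to 261 in oocytes and 402 to 1128 at the later stages, and the ratio of 3′ to 5′ actin signal was 1.52 to 2.22 in blastocysts and 3.45 to 6.01 at the other stages. The same ratio for Gapdh was 0.777 to 1.86 in 8-cell embryos, against 2.82 to 8.31 at the other stages. This Gapdh ratio moves with the changes at the 8-cell stage, and the 18S value moves with those at the 1-cell stage. The 5 oviduct and blood markers summed to 101 to 249.1 in oocytes, 140.3 to 318 in 1-cell embryos, 423 to 966 in 2-cell embryos, 243 to 3269 in 8-cell embryos and 169 to 242 in blastocysts. At the 2-cell stage 2 of 4 tested ones rose (Ovgp1, an oviduct glycoprotein gene, and Lyz2, a lysozyme gene of myeloid cells). The part of these values in the results was not tested. The array 8-Cell replicate 2 stood apart in Ovgp1, which read 3105 there and as little as 46.5 on another 8-cell array. Of the 67 calls made for the named genes between the 8-cell stage and its neighbours, 66 held without that array.

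Comparisons of neighbouring stages share the arrays of the stage between them. As a whole the nuclear respiratory chain fell at the 1-cell stage, stayed low at the 2-cell stage, returned to about its oocyte level at the 8-cell stage and passed it in the blastocyst. The median over the 88 genes of the log2 level relative to each gene's oocyte mean was -1.42 ± 0.23, -0.99 ± 0.14, 0.04 ± 0.16 and 0.86 ± 0.15 (mean and SD over 4 arrays) in 1-cell, 2-cell and 8-cell embryos and blastocysts. The same median over all 10257 tested genes stayed between -0.18 and 0.08. The stage means were highest in the blastocyst for 62 of the 88 genes (70.5%), against 17.6% of all tested genes, and lowest in 1-cell embryos for 47 and in 2-cell embryos for 27.

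**Figure D1:**
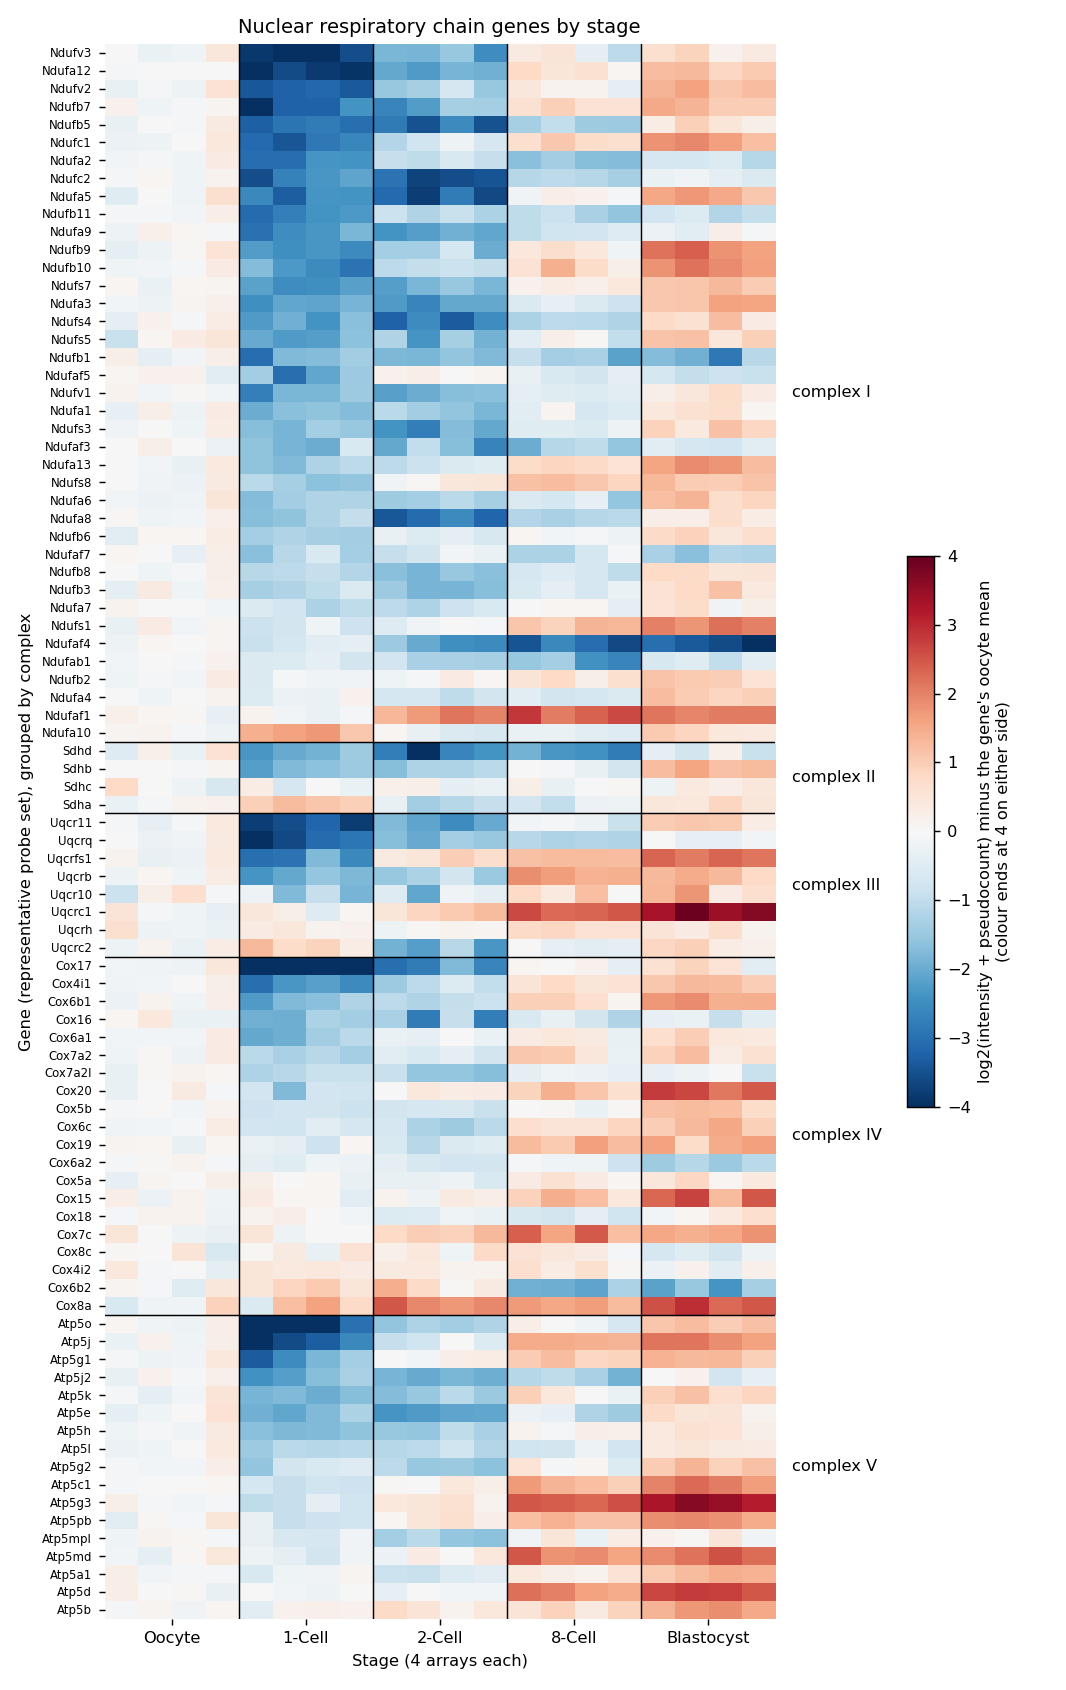
Log2 level of each of the 88 tested genes (rows, grouped by complex and sorted by the 1-cell value) on each of the 20 arrays (columns, 4 a stage), relative to the gene's oocyte mean, with blue below and red above it. Most rows of complexes I, III and V are blue in 1-cell and 2-cell embryos and red in blastocysts, with Ndufa10, Sdha and Uqcrc2 red in 1-cell embryos.

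The complexes shared this outline and differed in how deep and how long the low phase was. Complex I was at -1.74 ± 0.15, -1.45 ± 0.15, -0.43 ± 0.08 and 0.73 ± 0.16 in the 4 stages after the oocyte, complex II at -0.96 ± 0.19, -1.13 ± 0.15, -0.44 ± 0.15 and 0.39 ± 0.19, complex III at -1.56 ± 0.36, -1.0 ± 0.49, 0.64 ± 0.27 and 0.95 ± 0.35, complex IV at -0.61 ± 0.06, -0.45 ± 0.13, 0.37 ± 0.22 and 0.72 ± 0.20 and complex V at -1.01 ± 0.30, -0.73 ± 0.21, 0.47 ± 0.14 and 1.23 ± 0.11. Complexes III, IV and V were above the oocyte level on all 4 8-cell arrays, while complexes I and II were below it on all 4. In 1-cell embryos all 4 arrays of complex I were lower than all 4 of complexes II, IV and V, whereas those of complexes I and III overlapped. These are descriptions, since the difference between complexes was not tested, and complexes II and III hold 4 and 8 genes.

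**Figure D2:**
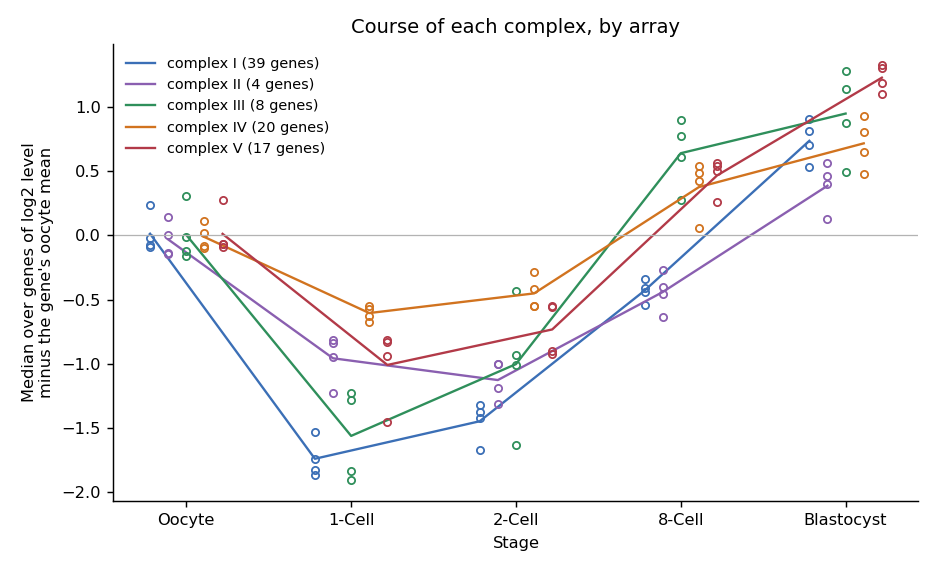
Median over the genes of each complex of the log2 level relative to the gene's oocyte mean, by stage. Circles are single arrays (4 a stage) and lines join the means; complex I has the lowest line in 1-cell embryos (-1.74) and complex V the highest in blastocysts (1.23).

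Between oocyte and 1-cell embryo 63 of the 88 genes fell and 3 rose, and the median change was -1.37 (log2). Over all 10257 tested genes 16.6% fell and 15.2% rose, and the median was 0.09. The falls took in 34 of 39 complex I genes (median -1.96), 2 of 4 complex II genes, 5 of 8 complex III genes (median -1.56), 10 of 20 complex IV genes (median -0.50) and 12 of 17 complex V genes (median -0.85). The 3 rises were Ndufa10, Sdha and Uqcrc2, 1 gene each in complexes I, II and III. A 1-cell embryo is a single cell. In embryos of many cells, fewer cells of a type and less RNA per cell cannot be told apart in such bulk samples. At a common mean a lower value cannot be told apart from a rise of the other transcripts. Scaled instead to the spiked hybridization controls, 80 members were called lower and 0 higher at the 1-cell stage. Of all 17208 probe sets 7523 were then called, 0.731% of them higher, so most calls were falls there too. The median over all probe sets was then -0.69, against 0.11 as deposited. The step at which these controls were added is not given here, so this scaling was not taken as a measure of RNA per embryo.

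From the 1-cell to the 2-cell stage the members parted, with 37 genes up and 19 down and a median of 0.28, where 22.0% of all tested genes rose and 22.7% fell. Complex III had 5 rises and 1 fall, complex IV 8 and 2, complex V 6 and 3, complex I 17 and 11 and complex II 1 and 2. Without 2-Cell replicate 2 the falls numbered 12. With the hybridization controls 7 fell, where 5760 of all 17208 probe sets were called, 65.2% of them higher. Of the named genes the falls of Atp5a1, Atp5g2, Cox18, Cox6c, Ndufa4, Ndufa5, Ndufab1 and Ndufs4 were no longer called. Nor were the rises of Ndufs1 (log2 0.65, against 0.48 as deposited) and Sdhb (0.63, against 0.45). The adjusted p of these named genes was 0.085 to 0.61. At the 8-cell stage 64 genes rose and 5 fell (median 1.12), against 22.2% and 25.7% of all genes: 28 of 39 rose in complex I, 1 of 4 in complex II, 7 of 8 in complex III, 13 of 20 in complex IV and 15 of 17 in complex V. With the hybridization controls 38 rose and 8 fell, where 6928 of all 17208 probe sets were called, 21.9% of them higher. The rises of Atp5a1, Atp5g1, Atp5o, Cox15, Cox20, Cox5a, Cox5b, Cox7a2, Cox7a2l, Sdhb, Uqcr10 and Uqcrfs1 at the 8-cell stage, 12 of the named genes, were no longer called (log2 0.067 to 0.84, adjusted p 0.059 to 0.88). From the 8-cell embryo to the blastocyst 56 genes rose and 2 fell (median 0.85), against 20% and 26.4% of all genes, and complex IV had the smallest share with 8 rises and both falls among 20 genes, against 28 rises of 39 in complex I. Under the same control scaling 79 rose and 0 fell, where 7994 of all 17208 probe sets were called, 95.3% of them higher. Without 8-Cell replicate 2 the counts were 61 rises and 4 falls at the 8-cell stage and 58 and 3 in the blastocyst. Between blastocyst and oocyte, the ends of the series, 58 of the 88 genes were higher and 9 lower (median 0.84), against 26.2% and 33.6% of all genes. With the hybridization controls 41 were higher and 11 lower, where 9646 of all 17208 probe sets were called, 38.7% of them higher. The named genes higher as deposited and not called under that scaling were Cox5a, Cox6a1, Cox7a2, Ndufa10, Ndufs4, Sdha, Uqcr10, Uqcr11 and Uqcrc2 (log2 0.18 to 0.80).

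**Figure D3:**
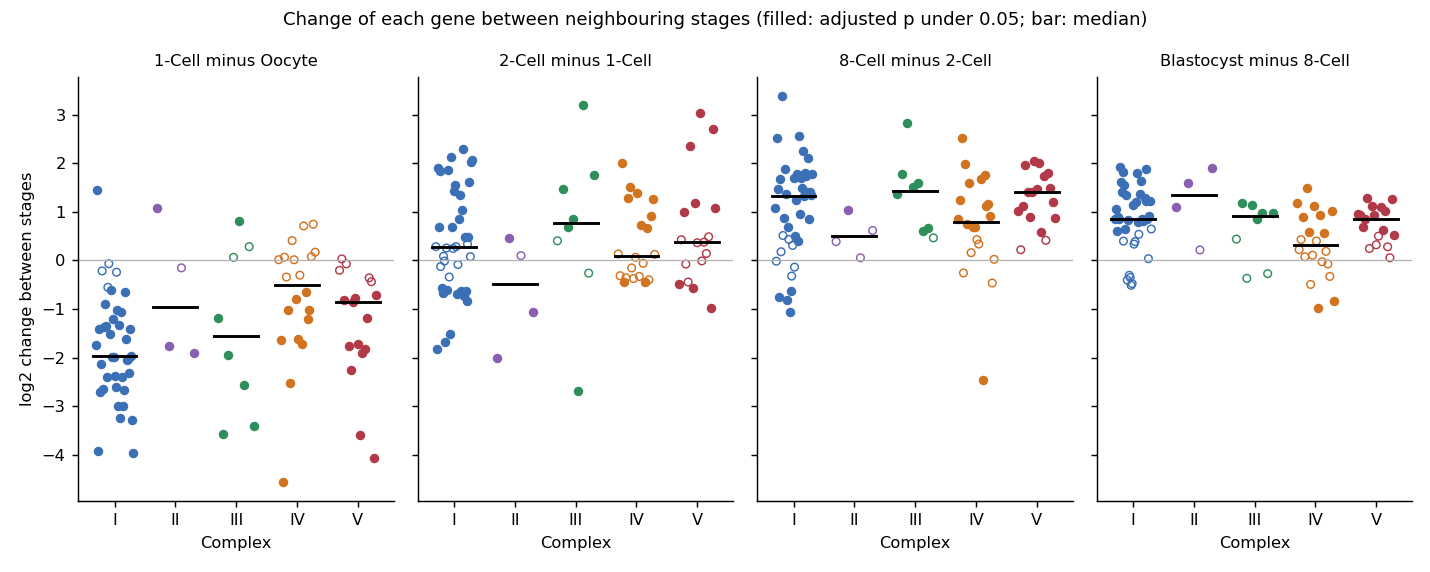
Log2 change of each gene at the 4 steps between neighbouring stages, by complex; each point is 1 gene, filled where its adjusted p was under 0.05, and bars are medians. In the first panel complex I lies mostly below zero (median -1.96), and in the third panel all complexes have medians above zero (0.50 to 1.44).

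Complex I, the entry point for electrons from NADH, has a nuclear core of iron-sulfur and flavin subunits surrounded by accessory subunits. All 6 tested core genes (Ndufs1, Ndufs3, Ndufs7, Ndufs8, Ndufv1 and Ndufv2) fell at the 1-cell stage, all 6 rose at the 8-cell stage, and 5 were higher in blastocysts than in oocytes. The shares of all tested genes were 16.6%, 22.2% and 26.2%. Ndufv1, which encodes the subunit that binds NADH and the flavin, had 80.4, 159, 161 and 214 in 1-cell embryos, against 669, 560, 622 and 562 in oocytes, a log2 change of -1.96 ± 0.20, adjusted p = 1.2e-08. No array of one stage reached the range of the other. It read 464, 422, 410 and 440.4 in 8-cell embryos, against 124, 144, 177 and 179.7 in 2-cell embryos (1.42 ± 0.20, adjusted p = 9.7e-07), and its blastocyst values did not pass the test against oocytes (0.45 ± 0.20, adjusted p = 0.057). Its 2 other probe sets were called higher there (0.71 ± 0.21 and 0.57 ± 0.21). Ndufs1, the largest iron-sulfur subunit, fell less at the 1-cell stage, where 82.3, 91.7, 139 and 84.2 in 1-cell embryos overlapped 126, 202, 147 and 172 in oocytes (-0.65 ± 0.19, adjusted p = 0.0088). In blastocysts it had 674, 567, 779 and 676, above every oocyte array (1.99 ± 0.19, adjusted p = 4.9e-10).

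Of 27 accessory genes of complex I 24 fell and 1 rose at the 1-cell stage, 10 rose and 8 fell at the 2-cell stage, 21 rose and 2 fell at the 8-cell stage, and 21 rose and 0 fell in the blastocyst. Of all tested genes 16.6% fell and 15.2% rose at the 1-cell stage, and 22.0% rose and 22.7% fell at the 2-cell stage. The rises and falls were 22.2% and 25.7% at the 8-cell stage and 20% and 26.4% in the blastocyst. The deepest fall was that of Ndufv3, a small subunit of the NADH-oxidizing arm, with 31, 21.2, 19.6 and 40.6 in 1-cell embryos, against 603, 501, 540.2 and 832 in oocytes (-3.97 ± 0.27, adjusted p = 5.8e-12). It had recovered part of this in 2-cell embryos, at 164, 158, 206 and 99.5 (2.06 ± 0.27, adjusted p = 3.3e-07). Most 1-cell values of Ndufv3 lie below the filter of 32.9. Over the alternative settings other than the hybridization control scaling its fall was -4.34 to -3.11. Ndufc1, a subunit of the membrane arm, made the largest called rise of complex I at the 2-cell stage, with 169, 224, 344 and 241 in 2-cell embryos, against 35.4, 25.9, 44.2 and 54.6 in 1-cell embryos (2.29 ± 0.21, adjusted p = 6.8e-10). Ndufa5, a subunit of the matrix arm, stayed low one stage longer. It had 318, 453, 392 and 706 in oocytes, 65.2, 34.6, 78.2 and 75.8 in 1-cell embryos, 41.3, 21.9, 53.5 and 25.6 in 2-cell embryos and 404, 539, 505 and 435 in 8-cell embryos, and its rise at the 8-cell stage was the largest of the 39 genes (3.38 ± 0.24, adjusted p = 4.5e-12). Ndufa3, a membrane arm subunit, had 730.2, 737, 1059.8 and 1038 in blastocysts, against 224, 264, 220.4 and 186 in 8-cell embryos, the largest rise of complex I at that step (1.93 ± 0.19, adjusted p = 4.5e-09).

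Ndufa10, an accessory subunit related to nucleoside kinases, was the single complex I gene that rose at the 1-cell stage. It had 1099, 1265, 1369 and 878 in 1-cell embryos, against 439, 446, 394 and 352 in oocytes, so that every 1-cell array was above every oocyte array (1.46 ± 0.19, adjusted p = 5.4e-07). At the 2-cell stage it was back at 432, 329, 265 and 254 (-1.82 ± 0.19, adjusted p = 3.6e-09). With the hybridization controls the change at the 1-cell stage was 0.47 (adjusted p = 0.18), still above the median of -0.69 over all probe sets. Ndufab1, the mitochondrial acyl carrier protein, which is also part of fatty acid synthesis, declined over several stages. Its values were 591, 639, 596 and 717 in oocytes, 423, 426, 495 and 376 in 1-cell embryos, 367, 251, 252 and 245 in 2-cell embryos, 215, 240.4, 109 and 91 in 8-cell embryos and 404, 451, 317 and 455 in blastocysts. The fall passed the test at the 8-cell stage (-0.81 ± 0.22, adjusted p = 0.0034), and the rise after it too (1.34 ± 0.22, adjusted p = 2.1e-05). A second, dimmer probe set passed neither test (-0.03 ± 0.23 and -0.29 ± 0.23). Its fall at the 2-cell stage (-0.62 ± 0.22, adjusted p = 0.025) was lost without any one of 1-Cell replicate 3 or 2-Cell replicates 2, 3 and 4, with adjusted p of 0.06 to 0.072. Ndufs4, an accessory subunit of the matrix arm, was lowest in 2-cell embryos at 23.2, 46.9, 21.2 and 48.3, against 58, 75.7, 52.4 and 94.2 in 1-cell embryos (-0.83 ± 0.23, adjusted p = 0.0035).

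Ndufa4 carries a complex I name but its protein is found with complex IV. It did not pass the test at the 1-cell stage, with 160.4, 199.8, 196 and 267 in 1-cell embryos, against 236, 212, 243 and 261 in oocytes (-0.22 ± 0.17, adjusted p = 0.36). It was lower in 2-cell embryos, at 139.8, 144, 112 and 138 (-0.57 ± 0.17, adjusted p = 0.006), and read 578, 492, 442 and 473 in blastocysts, against 176, 138, 142 and 154 in 8-cell embryos (1.62 ± 0.17, adjusted p = 1.0e-08).

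The assembly factors of complex I (Ndufaf genes), which help to build the enzyme and are not part of it, were counted apart. Of 5 tested, 4 fell at the 1-cell stage, 1 rose and 2 fell at the 8-cell stage, and in blastocysts 3 were lower and 1 higher than in oocytes. In the same comparison 5 of 6 core genes were higher and 0 lower, and 18 of 27 accessory genes were higher and 4 lower. Over all tested genes 16.6% fell at the 1-cell stage, and 22.2% rose and 25.7% fell at the 8-cell stage. In blastocysts 26.2% were higher and 33.6% lower than in oocytes. With 5 genes these counts are not read as a trait of assembly factors, and the difference between the roles was not tested. Ndufaf4 had 2227, 2709.9, 2558 and 2749 in oocytes, 1360.1, 1564, 1894 and 1929 in 1-cell embryos, 922, 617, 461 and 428 in 2-cell embryos, 221, 415, 296 and 199 in 8-cell embryos and 304, 239, 203 and 150.5 in blastocysts. The log2 change between blastocyst and oocyte was -3.48 ± 0.23, adjusted p = 3.8e-13, the largest fall of the 88 representatives in that comparison. A second, dimmer probe set of the gene did not show it, with 85.5, 105, 221 and 101 in blastocysts, against 129, 186, 129 and 117 in oocytes (-0.19 ± 0.25, adjusted p = 0.52). Its first step, at the 1-cell stage (-0.61 ± 0.23, adjusted p = 0.046), was lost on leaving out any 1 of 9 arrays (adjusted p up to 0.14). Ndufaf1, singled out after its values were seen, went the other way, with 168, 146, 158 and 158 in blastocysts, against 34.8, 30.9, 29.4 and 19.9 in oocytes (2.06 ± 0.21, adjusted p = 1.8e-09). Most of these oocyte values lie below the filter of 32.9, so the size of this rise depends on the pseudocount. The 4 accessory genes lower in blastocysts than in oocytes were Ndufa2, Ndufab1, Ndufb1 and Ndufb11, also named after the fact apart from Ndufab1. Of these Ndufb1 changed most (-1.91 ± 0.32, adjusted p = 1.1e-05), and the call for Ndufab1 (-0.64 ± 0.22, adjusted p = 0.015) was lost without Blastocyst replicate 3 at -0.53 (adjusted p = 0.061).

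Complex II has 4 nuclear subunits, whose representatives did not move together. Sdha, the flavoprotein that oxidizes succinate, had 1297, 1635, 1464 and 1296 in 1-cell embryos, against 555, 643, 736 and 754 in oocytes, with no overlap (1.07 ± 0.20, adjusted p = 0.00016). In 2-cell embryos it had 539, 248, 298 and 344 (-2.01 ± 0.20, adjusted p = 3.7e-09), and it rose again in blastocysts, with 912, 896, 1224 and 932 in blastocysts, against 384, 329, 565 and 583 in 8-cell embryos (1.10 ± 0.20, adjusted p = 9.3e-05). These values are from the brighter of its probe sets. The other, an _s_at probe set, had 182, 163, 158 and 180.2 in 1-cell embryos, against 147, 148, 168 and 181 in oocytes (0.08 ± 0.19, adjusted p = 0.81). It passed no test at the 2-cell stage either (-0.45 ± 0.19, adjusted p = 0.061), while its rise in blastocysts was called (2.07 ± 0.19, adjusted p = 2.6e-09). With the hybridization controls the 1-cell change of the brighter one was 0.08 (adjusted p = 0.84). Sdhb, the iron-sulfur subunit that takes the electrons from Sdha, moved the opposite way at the 1-cell stage, with 105, 145, 160.2 and 186 in 1-cell embryos, against 519, 521, 500.2 and 574 in oocytes (-1.77 ± 0.18, adjusted p = 1.6e-08). Its rise at the 2-cell stage (0.45 ± 0.18, adjusted p = 0.046) was lost on leaving out any 1 of 13 arrays. It rose at the 8-cell stage (1.03 ± 0.18, adjusted p = 3.0e-05) and again in blastocysts (1.59 ± 0.18, adjusted p = 8.3e-08), where it had 1268, 1594, 1196 and 1288. With the hybridization controls the 8-cell rise was 0.50 (adjusted p = 0.17). Of the membrane anchors, Sdhd fell at the 1-cell stage (-1.91 ± 0.30, adjusted p = 1.6e-05) and the 2-cell stage (-1.07 ± 0.30, adjusted p = 0.005) and had 706, 554, 1066 and 494 in blastocysts, against 242, 175, 163 and 125 in 8-cell embryos (1.90 ± 0.30, adjusted p = 1.3e-05). A dim second probe set of Sdhd passed neither of the last 2 tests (0.12 ± 0.32 and 0.42 ± 0.32). For Sdhc the 2 probe sets differed. The representative, an _x_at probe set, passed no test, with stage means between 164 and 212. The other had 59.4, 47.2, 53.8 and 57.7 in 2-cell embryos, against 86.6, 130.4, 183 and 186 in 1-cell embryos (-1.20 ± 0.22, adjusted p = 3.8e-05). It then had 196, 216, 149 and 196 in blastocysts, against 43.4, 45.8, 40.5 and 22 in 8-cell embryos (2.03 ± 0.22, adjusted p = 2.2e-08). For the brighter probe set of Sdha, the higher blastocyst level against oocytes (0.55 ± 0.20, adjusted p = 0.023) was lost without Oocyte replicate 1 at 0.46 (adjusted p = 0.078) or Blastocyst replicate 3 at 0.45 (adjusted p = 0.086). The _s_at probe set of Sdha was called higher there too, by 2.06.

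By their representatives, the catalytic Rieske iron-sulfur protein of complex III and 4 of 5 small subunits fell at the 1-cell stage, against 16.6% of all tested genes. The 2 large core proteins, which help to hold the enzyme together, did not. Of 4 tested probe sets of Uqcrq, a small subunit, only 1 was called lower there, with changes of -3.42 to 0.65. Of 3 for Uqcr10, another small subunit, 1 was called lower and 1 higher. Uqcrfs1, the Rieske protein, had 27.8, 29.4, 81.8 and 41.9 in 1-cell embryos, against 338, 252, 262 and 406 in oocytes (-2.57 ± 0.21, adjusted p = 2.3e-10). It then made the largest rise of the 88 genes at the 2-cell stage, to 397, 433, 619 and 508 (3.20 ± 0.21, adjusted p = 8.0e-13), and reached 1604, 1349, 1598 and 1390 in blastocysts. Uqcr11, a small subunit, had 7.3, 10.2, 16.7 and 6.7 in 1-cell embryos, against 243, 199, 242 and 335 in oocytes (-3.57 ± 0.23, adjusted p = 2.0e-12). Its 1-cell values all lie below the intensity filter of 32.9, so the size of this change depends on the pseudocount. It was -4.31 with 3.04 and -2.35 with 48.6 in place of 12.15. Uqcrb, the small subunit that binds ubiquinone, had 13236, 11577, 9433 and 9787 in 8-cell embryos, against 1264, 1509, 2194 and 1287 in 2-cell embryos (2.83 ± 0.20, adjusted p = 2.5e-12), with no further change that passed the test in blastocysts (-0.37 ± 0.20, adjusted p = 0.13). Uqcrc2, a core protein, had 4108, 2808, 3091 and 2054 in 1-cell embryos, against 1454, 1852, 1386 and 2074 in oocytes. The ranges touched, since 1 of 4 1-cell arrays lay below the highest oocyte array (0.81 ± 0.23, adjusted p = 0.0083), and with the hybridization controls the sign turned, at -0.19 (adjusted p = 0.53). Its fall at the 2-cell stage was larger, to 441, 352, 758 and 326 (-2.69 ± 0.23, adjusted p = 1.6e-10).

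Uqcrc1, the other core protein, did not pass the test at the 1-cell stage (0.06 ± 0.22, adjusted p = 0.87) and then rose at each later step. It had 104, 66.9, 60.2 and 52.3 in oocytes, 98.6, 83, 45 and 72.9 in 1-cell embryos, 101, 133, 155 and 183 in 2-cell embryos, 496, 373, 394 and 443 in 8-cell embryos and 786, 1203, 864 and 1028 in blastocysts. Its change between blastocyst and oocyte (3.58 ± 0.22, adjusted p = 6.9e-14) was the largest rise of the 88 genes. The choice of probe set mattered for this complex: over all 15 of its tested probe sets the median change at the 1-cell stage was -0.12, against -1.56 over the 8 representatives, and at the 8-cell stage 0.96 against 1.44.

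Complex IV holds 3 kinds of nuclear gene here: subunits expressed in most tissues, tissue isoforms of the same subunits, and assembly factors. Of 9 common subunits 6 fell at the 1-cell stage, against 16.6% of all tested genes. All 9 were higher in blastocysts than in oocytes, by 0.44 to 2.56 on the log2 scale, against 26.2% of all tested genes. Among them Cox7c read at most 11.2 in oocytes, 11.3 in 1-cell and 29.2 in 2-cell embryos, below the filter of 32.9. It passed the filter only through the later stages, so its higher blastocyst level is no independent result. With a filter at 71.8, 8 common subunits were tested and all 8 were called higher. With quantile normalization and with the hybridization controls 6 of the 9 were called, and the 3 lost were Cox5a, Cox6a1 and Cox7a2 each time. Cox4i1, the subunit that senses ATP, had 156, 259.8, 292 and 222 in 1-cell embryos, against 1243, 1262, 1361 and 1590.4 in oocytes (-2.52 ± 0.18, adjusted p = 1.8e-11). It regained part of this at the 2-cell stage (1.52 ± 0.18, adjusted p = 7.2e-08) and had 1926, 2344, 1915 and 2032 in 8-cell embryos (1.59 ± 0.18, adjusted p = 2.9e-08). Cox5a, a small matrix-side subunit, did not pass the test at the 1-cell stage on its representative, with 4039, 3500.5, 3627 and 2789 in 1-cell embryos, against 2737, 3673, 3363 and 4071 in oocytes (0.01 ± 0.17, adjusted p = 0.97). Of its 2 other probe sets, 1 was called lower there (-0.76 ± 0.22, adjusted p = 0.0076) and 1 was not (-0.13 ± 0.15). Cox5b, the zinc-binding subunit, made the largest rise of the group in blastocysts, with 4084, 4302, 4131 and 3017 in blastocysts, against 1825, 1863, 1483 and 1876 in 8-cell embryos (1.13 ± 0.14, adjusted p = 3.0e-07). Cox6c had 1961, 1752, 1755 and 2242 in 8-cell embryos, against 760.4, 501, 450.3 and 570.4 in 2-cell embryos, the largest rise of a complex IV subunit at the 8-cell stage (1.75 ± 0.17, adjusted p = 2.0e-09). Cox8a, the smallest subunit, rose at the 2-cell stage to 790, 526, 459.5 and 521, against 82.4, 313, 421 and 230 in 1-cell embryos (1.27 ± 0.32, adjusted p = 0.0019), a rise that its 2 other probe sets did not show (0.16 ± 0.17 and 0.40 ± 0.39). The smallest of the 9 changes between blastocyst and oocyte, that of Cox5a (0.44 ± 0.17, adjusted p = 0.028), was lost without any one of Oocyte replicates 1 and 3 or Blastocyst replicates 1 and 2 (log2 0.31 to 0.44, adjusted p 0.054 to 0.14). With quantile normalization it was 0.01 (adjusted p = 0.95) and with the hybridization controls 0.18 (adjusted p = 0.54). Without the intensity trend its adjusted p was 0.051. Both its other probe sets were called higher as deposited (0.71 ± 0.22 and 0.93 ± 0.15). That of Cox6a1 (0.61 ± 0.20, adjusted p = 0.011) was lost without Blastocyst replicate 2 at 0.49 (adjusted p = 0.053). It was also lost with quantile normalization at 0.22 (adjusted p = 0.32) and with the hybridization controls at 0.35 (adjusted p = 0.27). That of Cox7a2 (0.77 ± 0.23, adjusted p = 0.0047) was 0.39 (adjusted p = 0.063) with quantile normalization and 0.51 (adjusted p = 0.084) with the controls.

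Of the 4 tested tissue isoforms 0 were higher and 2 lower in blastocysts than in oocytes, and 0 rose at any step between neighbouring stages, by limma's test. Over all tested genes 26.2% were higher and 33.6% lower in blastocysts, and 15.2% to 22.2% rose at the steps. With 4 genes these counts are not read as a trait of tissue isoforms. At an unadjusted p under 0.05 a single rise was seen, that of Cox6b2 at the 1-cell stage (0.71 ± 0.30, adjusted p = 0.071). Cox6b2, a testis isoform, had 69, 60.6, 41.4 and 90.1 in oocytes, 92.8, 124, 143 and 92.7 in 1-cell embryos and 194, 115, 65.6 and 84.3 in 2-cell embryos. It then dropped to 7.6, 7.5, 5.2 and 19.2 in 8-cell embryos, with no overlap (-2.47 ± 0.30, adjusted p = 7.3e-08), and stayed at 4.8, 14.1, 2.5 and 17.9 in blastocysts. The values of both these stages lie below 32.9. Cox6b2 passed the filter only through the earlier stages, so this fall and its lower blastocyst level are no independent results. The change at the 8-cell stage was -3.18 with a pseudocount of 3.04 and -1.43 with 48.6. Over the 7 sperm and testis markers the summed level was 86.1 to 124 in oocytes, 91.5 to 203 in 1-cell, 88.8 to 159 in 2-cell and 122 to 248 in 8-cell embryos. Cox6a2, the heart and muscle isoform of Cox6a, had 59.3, 74.9, 56.5 and 79.4 in blastocysts, against 175, 158, 159 and 97 in 8-cell embryos (-0.98 ± 0.19, adjusted p = 0.00011), a fall that was not called with the hybridization controls (adjusted p = 0.97). Cox4i2, a lung isoform of Cox4, passed no test, with stage means of 44.3 to 67.2. Cox8c, a testis isoform named after its values were seen, was the other gene that fell in blastocysts (-0.84 ± 0.23, adjusted p = 0.0046).

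Cox17, the copper chaperone that delivers copper to complex IV, made the deepest fall of the 88 genes at the 1-cell stage. It had 41.4, 55.3, 41.1 and 79.9 in 1-cell embryos, against 1389, 1384, 1318 and 2064 in oocytes (-4.55 ± 0.26, adjusted p = 1.5e-13). It came back over the 2 following stages, to 177, 208, 437 and 234 in 2-cell embryos (2.01 ± 0.26, adjusted p = 2.2e-07) and 1593, 1532, 1701 and 1175 in 8-cell embryos (2.52 ± 0.26, adjusted p = 3.7e-09), where it overlapped the oocyte range. Cox15, which makes the heme A of complex IV, did not pass the test at the first 2 steps and rose at the 8-cell stage (0.85 ± 0.26, adjusted p = 0.0088) and in blastocysts, to 326, 444, 156 and 380.2 (1.19 ± 0.26, adjusted p = 0.00068). Cox20, a chaperone of a mitochondrially encoded subunit, was higher in blastocysts, with 296, 272, 178 and 234 in blastocysts, against 69.9, 107, 85 and 57.7 in 8-cell embryos (1.49 ± 0.25, adjusted p = 2.3e-05). Cox7a2l, a factor that joins complexes III and IV into supercomplexes, fell at the 1-cell stage (-1.03 ± 0.18, adjusted p = 7.9e-05), rose at the 8-cell stage (1.15 ± 0.18, adjusted p = 6.9e-06) and in blastocysts did not pass the test against oocytes (-0.35 ± 0.18, adjusted p = 0.11). Over the 11 tested assembly factors of complexes I and IV together, 4 were higher and 3 lower in blastocysts than in oocytes, against 26.2% and 33.6% of all genes.

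**Figure D4:**
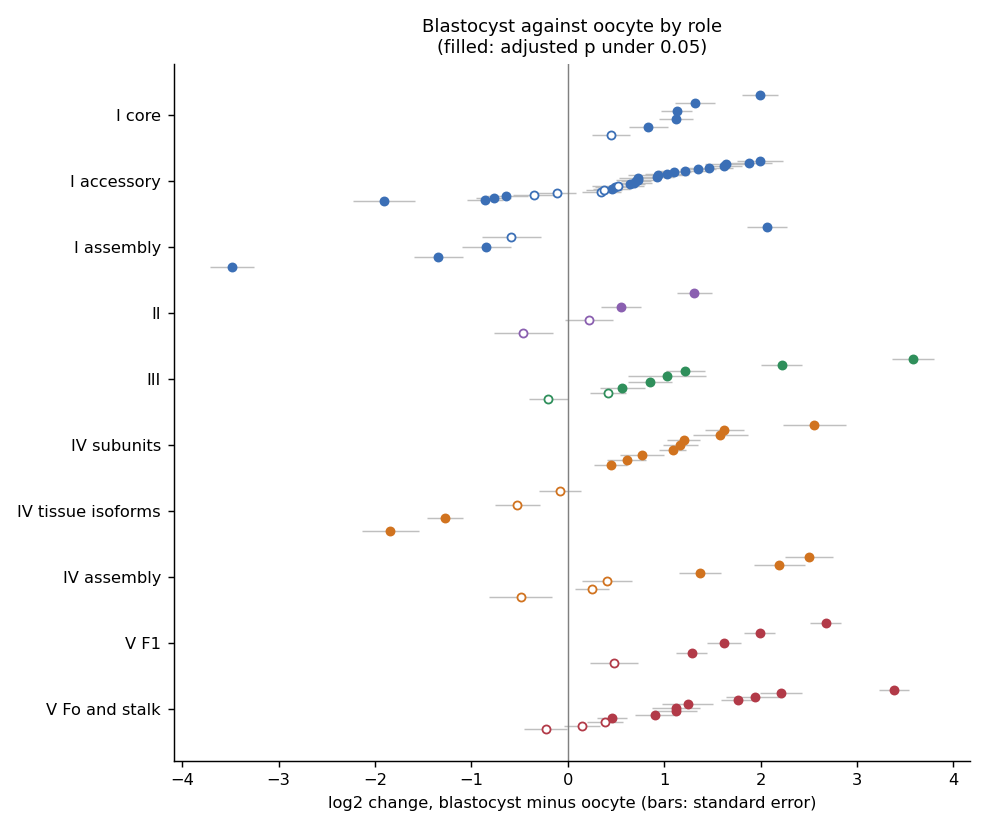
Log2 change between blastocyst and oocyte (horizontal axis, bars are standard errors) for 86 genes by role, without Ndufa4 and Cox7a2l; points are filled where the adjusted p was under 0.05. All 9 points of the common complex IV subunits lie right of zero (among them Cox7c, whose oocyte values lie below the intensity filter). The 4 tissue isoforms lie left of it, and the 5 complex I assembly factors run from -3.48 to 2.06.

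ATP synthase consists of the F1 head, which makes ATP, and of the membrane part with its stalks and its ring of c subunits. At the 1-cell stage 2 of 5 F1 genes fell, against 10 of 12 genes of the membrane part and stalks (4 of 4 stalk genes, 3 of 3 c subunit genes and 3 of 5 small membrane subunits). Over all tested genes 16.6% fell at this stage. The difference between the parts of the enzyme was not tested. Atp5b, which encodes the catalytic beta subunit, had 713, 1103, 1126 and 1110.5 in 1-cell embryos, against 942, 1056, 878 and 1029.6 in oocytes (0.03 ± 0.18, adjusted p = 0.92). It rose in blastocysts to 2526, 3302, 3547 and 2827 (0.94 ± 0.18, adjusted p = 9.7e-05). Atp5a1, the alpha subunit, passed no test at the 1-cell stage either (-0.20 ± 0.16, adjusted p = 0.39) and rose at the 8-cell stage (1.02 ± 0.16, adjusted p = 7.4e-06) and in blastocysts (0.96 ± 0.16, adjusted p = 3.1e-05). With the hybridization controls its 8-cell rise was 0.47 (adjusted p = 0.19). Under the same scaling Atp5b was lower in 1-cell embryos too, at -0.96, beside the median of -0.69 over all probe sets. Atp5e, the epsilon subunit, fell at the 1-cell stage (-1.76 ± 0.25, adjusted p = 3.6e-06) and had 426, 351, 360.4 and 271 in blastocysts, against 207, 193, 98.8 and 84.4 in 8-cell embryos (1.28 ± 0.25, adjusted p = 0.00018).

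In the peripheral stalk, which holds the F1 head still, Atp5o had 14.5, 23.5, 12 and 65.2 in 1-cell embryos, against 634, 536, 518 and 726 in oocytes (-4.06 ± 0.25, adjusted p = 9.2e-13). Most of these 1-cell values lie below the filter of 32.9. Over the alternative settings other than the hybridization control scaling the change was -4.51 to -3.11. Atp5j, another stalk subunit, had 7.2, 38.4, 49 and 89.3 in 1-cell embryos, against 490.2, 667, 527 and 699.5 in oocytes (-3.60 ± 0.30, adjusted p = 2.4e-10). Both were lower on every 1-cell array than on any oocyte array, and both rose at the 2-cell stage, to 191, 247, 220.2 and 255 for Atp5o (2.71 ± 0.25, adjusted p = 6.2e-10) and to 304, 337, 589 and 398 for Atp5j (3.03 ± 0.30, adjusted p = 1.8e-09). Atp5j went on to 1685, 1671, 1588 and 1529 in 8-cell embryos (2.00 ± 0.30, adjusted p = 2.3e-06). Atp5mpl, a small membrane subunit, was lowest one stage later, with 268, 327, 232 and 217 in 2-cell embryos, against 566, 451, 439 and 638 in 1-cell embryos (-0.97 ± 0.19, adjusted p = 8.4e-05).

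The c ring, whose rotation drives ATP synthesis, is encoded by 3 nuclear genes that yield the same mature protein. Atp5g1 had 436, 393, 415 and 622 in oocytes, 34.4, 69.5, 120.3 and 171 in 1-cell embryos, 449, 423, 553 and 565 in 2-cell embryos, 944, 1094, 824 and 867 in 8-cell embryos and 1234, 1146, 1169 and 892 in blastocysts. It was the deepest of the 3 at the 1-cell stage (-2.26 ± 0.26, adjusted p = 1.1e-07). At the 2-cell stage it was back in its oocyte range (2.37 ± 0.26, adjusted p = 1.7e-08), and Atp5g3 rose at that stage too (log2 1.19). Atp5g2 had 431, 411, 417 and 547 in oocytes, 143, 267, 289.9 and 311 in 1-cell embryos, 212, 149.8, 152 and 135 in 2-cell embryos, 656, 422, 475 and 302 in 8-cell embryos and 925, 1161, 855 and 1033 in blastocysts. It fell at the 1-cell stage (-0.85 ± 0.22, adjusted p = 0.0036) and rose only from the 8-cell stage on (1.41 ± 0.22, adjusted p = 4.7e-06). Its further fall at the 2-cell stage (-0.57 ± 0.22, adjusted p = 0.038) was lost on leaving out any 1 of 6 arrays (adjusted p up to 0.13). Atp5g3 had 679.5, 553, 537 and 565 in oocytes, 278, 300.4, 439 and 332 in 1-cell embryos, 776, 809, 899.9 and 638 in 2-cell embryos, 3339, 3156, 2924 and 3510.4 in 8-cell embryos and 5746, 7389, 6602 and 5208 in blastocysts. Its rise between blastocyst and oocyte was the largest of the complex V representatives (3.38 ± 0.16, adjusted p = 2.9e-16), against 1.24 ± 0.26 for Atp5g1 and 1.12 ± 0.22 for Atp5g2. A dimmer probe set of Atp5d, an F1 gene, rose by 3.40. The differences between the 3 c subunit genes were not tested.

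**Figure D5:**
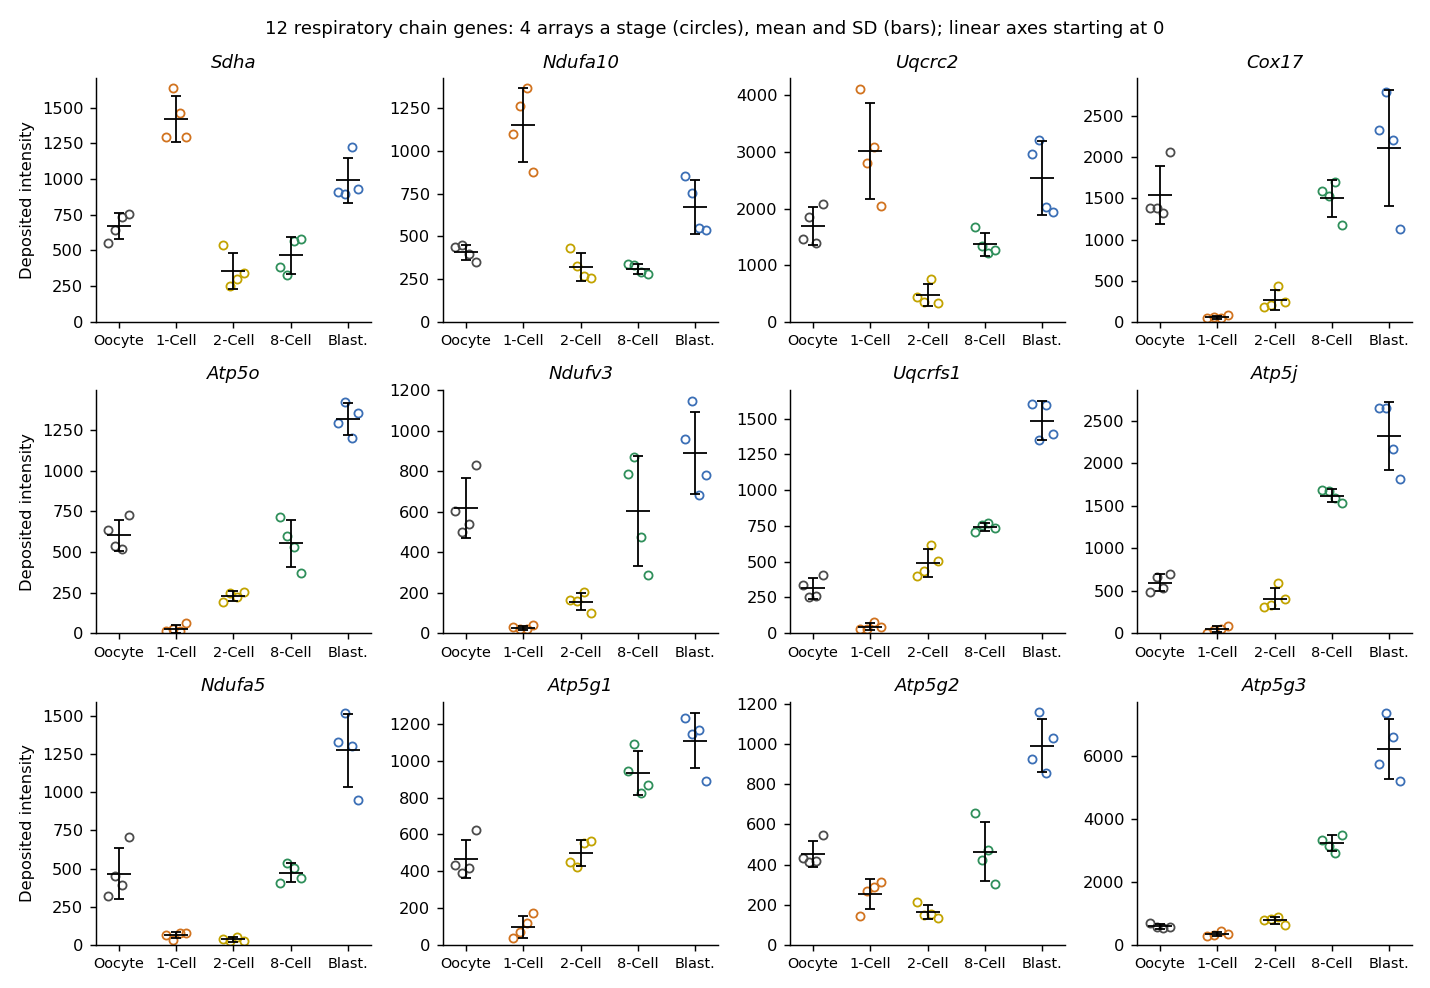
Deposited intensity (linear axes from 0, each with its own scale) of 12 genes on the 4 arrays of each stage, with mean and SD. Sdha, Ndufa10 and Uqcrc2 are highest or near their highest in 1-cell embryos, where Cox17, Atp5o, Ndufv3, Uqcrfs1 and Atp5j are near their lowest, and the 3 c subunit genes recover at different stages.

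Promoters were set beside these courses because several respiratory chain genes are known targets of NRF1 and of the ETS factor GABPA. RefSeq gave the 250 bases before the annotated start (build GRCm38.p6) for 74 of the 90 genes. The NRF1 motif (GCGC, then any base, then TGCGC), read on both strands, occurred in 11 of the 74 (14.9%), against 8.58% of 8206 tested genes outside the members, and by complex in 4 of 36, 2 of 3, 0 of 5, 1 of 15 and 4 of 15 genes of complexes I to V. The ETS motif CCGGAAG, read on both strands, occurred in 15 of 74 (20.3%), against 14.4% of the same genes. Of the members with a promoter, the NRF1 motif was in 10 of the 55 called lower at the 1-cell stage (18.2%) and in 1 of the 17 tested and not called lower (5.88%). The ETS motif was in 13 of 55 (23.6%) and 2 of 17 (11.8%). Of the 3 c subunit genes 1 holds an NRF1 motif, in capitals below, and the other two hold neither. The windows are chr11:96075632-96075881, minus strand for Atp5g1, chr15:102671048-102671297, minus strand for Atp5g2 and chr2:73911327-73911576, minus strand for Atp5g3.
Atp5g1: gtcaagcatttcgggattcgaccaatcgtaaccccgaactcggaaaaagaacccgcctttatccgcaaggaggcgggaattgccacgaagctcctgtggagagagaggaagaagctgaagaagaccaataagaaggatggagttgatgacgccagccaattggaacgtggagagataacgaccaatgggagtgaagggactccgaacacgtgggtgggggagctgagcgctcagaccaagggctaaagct
Atp5g2: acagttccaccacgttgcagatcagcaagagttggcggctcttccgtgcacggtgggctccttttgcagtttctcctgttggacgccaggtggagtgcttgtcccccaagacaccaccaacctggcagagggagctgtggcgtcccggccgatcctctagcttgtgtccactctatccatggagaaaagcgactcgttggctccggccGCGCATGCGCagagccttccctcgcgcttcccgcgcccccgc
Atp5g3: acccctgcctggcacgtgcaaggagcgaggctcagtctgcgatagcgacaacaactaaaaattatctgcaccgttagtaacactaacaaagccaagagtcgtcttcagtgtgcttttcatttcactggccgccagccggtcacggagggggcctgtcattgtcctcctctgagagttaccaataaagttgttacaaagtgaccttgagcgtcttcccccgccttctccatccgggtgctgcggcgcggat
Sdha, the 1 of those 17 with an NRF1 motif, and Atp5o are also shown. Atp5o is among the 55 called lower, of which only 10 hold the NRF1 motif, and has none. The difference between the 55 and the 17 was not tested. Sdha (chr13:74350241-74350490, minus strand) holds 3 NRF1 motifs, in capitals, and Atp5o (chr16:91931631-91931880, minus strand) holds neither motif.
Sdha: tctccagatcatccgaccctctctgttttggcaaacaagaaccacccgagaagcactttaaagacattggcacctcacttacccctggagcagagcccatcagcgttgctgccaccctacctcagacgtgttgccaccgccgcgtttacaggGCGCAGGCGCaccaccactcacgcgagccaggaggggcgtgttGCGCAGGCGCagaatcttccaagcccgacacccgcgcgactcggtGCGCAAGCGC
Atp5o: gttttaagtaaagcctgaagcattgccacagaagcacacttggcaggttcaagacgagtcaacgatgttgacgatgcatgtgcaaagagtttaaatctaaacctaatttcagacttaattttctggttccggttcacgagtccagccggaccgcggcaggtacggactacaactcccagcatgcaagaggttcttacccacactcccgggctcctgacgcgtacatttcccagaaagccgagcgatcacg
A match is a description of these letters in this window and does not show binding.

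Counted over all 156 tested probe sets of the members, in place of 1 a gene, the calls were 6 higher and 108 lower at the 1-cell stage (against 16.0% and 15.3% of all 17208), 65 higher and 28 lower at the 2-cell stage (against 23.2% and 21.5% of all 17208), 106 higher and 7 lower at the 8-cell stage (against 23.2% and 25.2% of all 17208), 93 higher and 4 lower from 8-cell embryo to blastocyst (against 19.5% and 25.5% of all 17208), and 99 higher and 13 lower between blastocyst and oocyte (against 28.5% and 30.7% of all 17208). Of the 88 genes 43 had several tested probe sets. At the 1-cell stage these were all called alike for 27 genes, some but not all were called for 10, none for 5, and for 1 they were called in opposite directions. Over the 5 comparisons 4 genes had probe sets called in opposite directions, 1 comparison each. For Ndufaf4 at the 2-cell stage the representative fell (-1.51 ± 0.23, adjusted p = 3.8e-06), while a second probe set read 526, 433, 341 and 456 in 2-cell embryos, against 203, 195, 158 and 166 in 1-cell embryos (1.22 ± 0.25, adjusted p = 0.00016). For Ndufs4 between blastocyst and oocyte the representative was higher (0.73 ± 0.23, adjusted p = 0.0072) and a dimmer one lower, with 30, 56.9, 40.5 and 46.3 in blastocysts, against 111, 110.4, 81.7 and 68.4 in oocytes (-0.92 ± 0.22, adjusted p = 0.00063). For Uqcrq between blastocyst and 8-cell embryo the representative rose (0.99 ± 0.21, adjusted p = 0.00035) and 2 of its 3 other probe sets fell, by 0.77 ± 0.27 and 1.07 ± 0.37 on the log2 scale. For Uqcr10 at the 1-cell stage the representative was lower (-1.18 ± 0.40, adjusted p = 0.025), a call lost on leaving out any 1 of 4 arrays, and a dim one was higher (0.73 ± 0.24, adjusted p = 0.021).

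Other genes of the same pathway were counted from lists chosen by function, and the 2 largest called changes of each are named. Over all tested genes 15.2% rose and 16.6% fell at the 1-cell stage, 22.0% and 22.7% at the 2-cell stage, 22.2% and 25.7% at the 8-cell stage and 20% and 26.4% in the blastocyst. Several of the list counts lie near these shares. Of 17 electron carrier and ubiquinone synthesis genes 2 rose and 7 fell at the 1-cell stage, 5 rose and 3 fell at the 2-cell stage, 9 rose and 2 fell at the 8-cell stage and 6 rose and 3 fell in the blastocyst. The largest changes were Gpd2 at the 8-cell stage (2.85 ± 0.26, adjusted p = 6.0e-10) and Coq3 at the 1-cell stage (-2.83 ± 0.16, adjusted p = 1.2e-13). Of 27 assembly factors with other names 2 rose and 13 fell at the 1-cell stage, 7 rose and 5 fell at the 2-cell stage, 13 rose and 1 fell at the 8-cell stage and 10 rose and 5 fell in the blastocyst. The largest changes were both Tmem126a, at the 1-cell stage (-2.75 ± 0.24, adjusted p = 5.0e-10) and in the blastocyst (2.61 ± 0.24, adjusted p = 1.3e-09). Of 18 regulators of respiratory genes and of mitochondrial DNA 1 rose and 4 fell at the 1-cell stage, 10 rose and 5 fell at the 2-cell stage, and 5 rose and 7 fell at each of the later steps. The largest changes were Gabpa at the 2-cell stage (5.79 ± 0.20, adjusted p = 1.2e-18) and Yy1 at the 2-cell stage (4.60 ± 0.21, adjusted p = 4.3e-16). Gabpa and Yy1 encode transcription factors with known targets among respiratory chain genes. Of 15 genes of mitochondrial import, transport and membrane shape 2 rose and 6 fell at the 1-cell stage, 5 rose and 4 fell at the 2-cell stage, 7 rose and 5 fell at the 8-cell stage and 7 rose and 2 fell in the blastocyst. The largest changes were both Tomm20, at the 2-cell stage (6.69 ± 0.17, adjusted p = 5.3e-21) and at the 1-cell stage (-3.21 ± 0.17, adjusted p = 4.8e-14).

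Some genes of these lists were singled out after their values were seen. Cyc1, which encodes cytochrome c1 of complex III under a symbol outside the rule, had 53 to 69.4 in 1-cell embryos, against 152 to 199 in oocytes (-1.44 ± 0.15, adjusted p = 2.4e-08), and rose at each later step. Nrf1 did not pass the test at the 2-cell stage (-0.16 ± 0.17, adjusted p = 0.51) and fell at the 8-cell stage (-0.85 ± 0.17, adjusted p = 0.00017). Tfam, which packages mitochondrial DNA, fell at the 1-cell stage (-0.91 ± 0.24, adjusted p = 0.0046) and rose at each later step. The 13 mitochondrially encoded subunits were not analysed here.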

How the data were processed

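Total RNA was amplified by 2 rounds of in vitro transcription, per the labels' protocols, and hybridized to MOE430A arrays. The deposited values are intensities, 1 per probe set and array. The software that made them is not given in the sources used here, and the 2% trimmed mean of each array is 150.1, so no further normalization was applied. Genes were named from GEO's platform annotation. Depth has no counterpart on arrays, and 4 arrays a stage limit the precision.

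Values were taken as log2(intensity + 12.15), where 12.15 was set from the pooled median of 48.6. The test took the probe sets that exceeded 32.9 (40th percentile of all values) on 4 or more arrays (17208 of 22690, with 64 control probe sets left out). limma 3.58.1 (R 4.3.3) fitted one model to the 5 stages, with 15 residual degrees of freedom and an intensity trend, and p-values were Benjamini-Hochberg adjusted within each comparison. The procedure was tested on simulated data. Named genes were the largest called rise and fall without overlap per complex and step, a fixed set of well-known subunits, and genes with probe sets called in opposite directions. The members, lists and named genes were chosen with earlier results of these data known. Alternatives changed the normalization, scaling, pseudocount, filter, samples in the fit, moderation, replicate block, unit counted and threshold, and left out each array in turn.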

Additional observations from a re-analysis of the deposited data

Results flagged for a closer look

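In 15 of 260 groups of 4 arrays 1 value stood apart from the other 3 (by Dixon's test at the 95% level), where chance gives about 1 in 20. Of these, 5 were high values on Oocyte replicate 4, the array with the lowest median intensity (36.5). Atp5g2 read 547 on Oocyte replicate 4, against 411 to 431 on the other arrays of that stage. Cox17 read 2064 on Oocyte replicate 4, against 1318 to 1389 on the other arrays of that stage. Cox6a1 read 3842 on Oocyte replicate 4, against 2802 to 2843 on the other arrays of that stage. Cox6c read 1506 on Oocyte replicate 4, against 1108 to 1174 on the other arrays of that stage. The complex V median relative to the oocyte mean was 0.28 there, against -0.09 to -0.07 on the other oocyte arrays. Without this array 62 genes fell and 5 rose at the 1-cell stage, and 59 were higher and 10 lower in blastocysts than in oocytes.

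The other 10 were spread over several arrays. Atp5b had 713 on 1-Cell replicate 1, against 1103 to 1126 on the other arrays of that stage. Cox20 had 0.9 on 1-Cell replicate 2, against 13.4 to 14.3 on the other arrays of that stage. Cox5b had 1483 on 8-Cell replicate 3, against 1825 to 1876 on the other arrays of that stage. Cox5b had 3017 on Blastocyst replicate 4, against 4084 to 4302 on the other arrays of that stage. Cox6a1 had 3068 on 2-Cell replicate 3, against 2437 to 2524 on the other arrays of that stage. Cox7a2l had 887 on 2-Cell replicate 1, against 492 to 553 on the other arrays of that stage. Ndufab1 had 367 on 2-Cell replicate 1, against 245 to 252 on the other arrays of that stage. Ndufs1 had 139 on 1-Cell replicate 3, against 82.3 to 91.7 on the other arrays of that stage. Sdha had 1224 on Blastocyst replicate 3, against 896 to 932 on the other arrays of that stage. Uqcr11 had 311 on Blastocyst replicate 4, against 513 to 537 on the other arrays of that stage.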

How the results depend on the processing

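Of the 170 calls of named genes, 147 held under every alternative other than the hybridization control scaling, and 135 held under that scaling. With all 156 tested probe sets counted, the counts of calls and the complex medians were at the 1-cell stage 6 higher, 108 lower, -1.62 for complex I, -0.43 for complex II, -0.12 for complex III, -0.76 for complex IV, -1.18 for complex V, at the 2-cell stage 65 higher, 0.57 for complex I, at the 8-cell stage 106 higher, 0.95 for complex I, 0.96 for complex III, 1.21 for complex V, from 8-cell embryo to blastocyst 93 higher, 4 lower, 1.59 for complex II, 0.44 for complex III and between blastocyst and oocyte 99 higher, 0.22 for complex II. With a 2-fold change required too, the counts were at the 2-cell stage 6 lower, at the 8-cell stage 2 lower, from 8-cell embryo to blastocyst 30 higher, 0 lower and between blastocyst and oocyte 5 lower. With quantile normalization the medians were at the 8-cell stage 0.66 for complex II, and between blastocyst and oocyte 0.35 for complex IV. With arrays centred on their median they were at the 2-cell stage -0.015 for complex IV, and from 8-cell embryo to blastocyst 1.08 for complex I, 1.57 for complex II, 0.54 for complex IV, 1.07 for complex V. Scaled to the hybridization controls, the counts, medians and gene changes that moved or turned were at the 1-cell stage 0 higher, -2.74 for complex I, -1.91 for complex II, -2.50 for complex III, -1.46 for complex IV, -1.82 for complex V, -0.96 for Atp5b, -0.84 for Cox15, -0.90 for Cox18, -0.99 for Cox5a, -0.81 for Uqcrc1, -0.19 for Uqcrc2, at the 2-cell stage 7 lower, 0.44 for complex I, -0.28 for complex II, 0.29 for complex IV, at the 8-cell stage 38 higher, 8 lower, 0.80 for complex I, -0.023 for complex II, 0.91 for complex III, 0.32 for complex IV, 0.87 for complex V, from 8-cell embryo to blastocyst 0 lower, 1.92 for complex I, 2.40 for complex II, 1.98 for complex III, 1.37 for complex IV, 1.92 for complex V, 1.00 for Cox7a2l, 0.72 for Ndufaf4, 0.71 for Uqcrb and between blastocyst and oocyte 0.47 for complex I, 0.13 for complex II, 0.43 for complex IV, 0.99 for complex V. With a pseudocount of 48.6 the medians were at the 1-cell stage -1.43 for complex I, -0.36 for complex IV, and at the 8-cell stage 1.08 for complex I, 1.10 for complex V. With no filter the median was at the 1-cell stage -0.32 for complex IV. With a filter at 71.8 it was at the 1-cell stage -0.73 for complex IV. Under that control scaling the median over all probe sets was -0.69, 0.13, -0.38, 0.64 and -0.35 in these comparisons, against 0.11, -0.04, 0.06, -0.21 and -0.12 as deposited. The share of calls that were higher was 0.731%, 65.2%, 21.9%, 95.3% and 38.7%, against 51.1%, 51.9%, 48%, 43.4% and 48.1%, and from 8-cell embryo to blastocyst it was 63.0% with arrays centred. The cause was not tested. Leaving out 1 array at a time, the complex I median was -2.13 to -1.67 at the 1-cell stage and 1.20 to 1.39 at the 8-cell stage, where complex II had 0.24 to 0.64 and complex V 1.21 to 1.44. The rises at the 1-cell stage numbered 3 to 5 (5 without Oocyte replicate 4) and the falls at the 2-cell stage 12 to 19 (12 without 2-Cell replicate 2). Replicate numbers did not pair the arrays, since 6 of 40 same-numbered pairs correlated above 0.1 (mean 0.01). With the replicate block 3 genes rose and 63 fell at the 1-cell stage, then 38 and 18, 65 and 5, and 56 and 2 at the later steps, and 57 and 9 between blastocyst and oocyte.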
